A study of Homo sapiens with 6 samples.

Results

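The 10 genes described here are the transcription regulators and the cyclin that switch on multiciliogenesis, the programme by which an epithelial cell makes many motile cilia. They were chosen by name (FOXJ1, RFX2, RFX3, GMNC, MCIDAS, E2F4, E2F5, MYB, TP73 and CCNO), and 9 of them were measured among the 25349 genes of the table. FOXJ1 was not analysed here. GMNC was too low to test, so 8 regulators were compared among 14661 tested genes. By edgeR's test 0 of the 8 were called different between the groups, against 34.0% of all tested genes. The summed level of 53 genes of the motile axoneme, which these regulators switch on in ciliated epithelia, lay between 73.1 and 76.2 CPM (read count relative to library size) in the control libraries and between 126 and 152 CPM in the knockdown libraries. Single genes weigh heavily in this sum, such as CCDC40 (mean 3.39 CPM in control and 18.5 CPM in knockdown libraries) and CCDC113 (12.2 and 25.2 CPM). Of the 53, 23 were too low to test, so the sum does not show a rise of every gene.

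Both groups were SCC-9 cells, an established human tongue carcinoma line of squamous type, grown with hydrocortisone and transfected with 10 nM siRNA on day 0 and again on day 2, before RNA was taken. The siE7 group (3 libraries, siKi in the sample titles) was given an siRNA aimed at exon 7 of MKI67, which encodes the proliferation marker Ki67, and the siNC group (3 libraries, NS in the titles) a nonspecific siRNA. Several exon 7 siRNAs are listed in the methods without saying which was sequenced, and a single line was used. The labels do not say whether the libraries of a group came from separate cultures, so p-values measure the spread between these libraries.

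In multiciliated cells of the airway, the brain ventricles and the oviduct, Notch signalling first has to fall. GMNC and MCIDAS, relatives of geminin that do not bind DNA themselves, then join E2F4 or E2F5 and a DP partner and turn on MYB, CCNO, TP73 and FOXJ1. CCNO serves the mass production of centrioles, whereas FOXJ1 and the RFX factors activate the genes of the moving axoneme, the latter through a promoter element called the X-box.

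The promoter windows that carry such elements are shown first, as the sequence background to the levels below. They are the 250 bases before the RefSeq transcript start on GRCh38.p14, printed 5′ to 3′ on the strand of the gene, and 7 regulators had at least 1 window. Capitals mark an E2F site, searched on both strands as TTTCCCGC, TTTCGCGC, TTTGCCGC or TTTGGCGC, or a whole X-box, also on both strands. MCIDAS, CCNO and TP73 are shown because theirs were the 3 of 11 windows with an E2F match, and MYB because its groups lay apart in the counts. They lie at chr5:55227316-55227565 (minus strand, MCIDAS), chr5:55233609-55233858 (minus strand, CCNO), chr1:3652266-3652515 (plus strand, the most upstream start of TP73) and chr6:135181058-135181307 (plus strand, MYB), next to the first exon and outside annotated exons.
MCIDAS: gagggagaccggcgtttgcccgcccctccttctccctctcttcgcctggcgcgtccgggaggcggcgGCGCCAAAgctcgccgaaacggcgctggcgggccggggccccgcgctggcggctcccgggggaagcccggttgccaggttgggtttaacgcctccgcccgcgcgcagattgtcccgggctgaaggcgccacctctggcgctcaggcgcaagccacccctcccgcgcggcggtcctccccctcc
CCNO: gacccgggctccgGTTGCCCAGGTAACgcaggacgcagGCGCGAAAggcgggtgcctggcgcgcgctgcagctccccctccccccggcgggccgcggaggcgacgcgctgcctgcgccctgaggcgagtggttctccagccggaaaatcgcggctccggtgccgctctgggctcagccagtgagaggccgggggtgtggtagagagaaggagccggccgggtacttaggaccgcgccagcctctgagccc
TP73: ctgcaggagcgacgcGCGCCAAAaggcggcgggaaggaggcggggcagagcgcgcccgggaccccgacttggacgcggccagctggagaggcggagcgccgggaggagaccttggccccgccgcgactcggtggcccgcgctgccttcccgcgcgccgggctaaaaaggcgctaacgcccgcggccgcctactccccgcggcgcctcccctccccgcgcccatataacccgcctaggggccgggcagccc
MYB: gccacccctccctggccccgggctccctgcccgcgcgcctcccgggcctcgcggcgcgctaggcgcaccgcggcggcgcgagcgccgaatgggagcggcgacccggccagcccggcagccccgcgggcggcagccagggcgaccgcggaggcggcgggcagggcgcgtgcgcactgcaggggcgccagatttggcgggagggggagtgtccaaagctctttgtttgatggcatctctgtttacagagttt

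An E2F match was present in 2.79% of all 35116 windows. The match of MCIDAS (GCGCCAAA) ended 176 bases before the start, that of CCNO (GCGCGAAA) 205 bases and that of TP73 (GCGCCAAA) 228 bases. CCNO also held the only whole X-box among the 11 windows, GTTGCCCAGGTAAC, which began 237 bases before the start, and 1.08% of all windows held one. The MYB window had a GC content of 75.6% and no match to the searched E2F words or to a whole X-box. It held TTTGGCGG, which differs from the searched word TTTGGCGC only in the last base, so other forms of an E2F site were not covered. These are matches of letters and not measured binding.

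The libraries held between 25608192 and 29550264 counts. MKI67, the targeted gene, lay between 1028 and 1077 CPM (the count scaled to library totals and TMM factors) with siNC and between 108 and 124 CPM with siE7, a log2 fold change of -3.21 (standard error 0.114). One siE7 library stood apart, since the chi-square of its counts against the other siE7 libraries, divided by the degrees of freedom, was 61.1 and 72.7, and 5.54 to 6.22 for all other pairs of a group. This library was siE7 replicate 1, and calls that rest on it are given with and without it. The squamous keratins KRT5 and KRT14 and the basal factor TP63 were high in every library, KRT5 between 1401 and 2483 CPM. However, 6 of 10 squamous markers were called lower and 1 higher with siE7, which is 70% against 34.0% of all tested genes. Of 10 markers of multiciliated cells, 7 were measured and 6 tested, TUBA1A was called higher and TUBB4B lower with siE7, and the other 4 were not called. SNTN and C20orf85 were, like FOXJ1, not analysed here. The sum of the 7, nearly all of it TUBB4B, lay between 1292 and 1319 CPM with siNC and between 695 and 898 CPM with siE7. Its fall is that of TUBB4B, at 1275 to 1301 CPM with siNC and 673 to 870 CPM with siE7. The log2 fold changes of the other tested markers lay above 0 (TUBA1A 0.80, TPPP3 0.83, CCDC78 0.84, PIFO 0.43 and CAPS 0.05). The part of these markers in the results below was not tested. Summed markers were at most 0.151 CPM for secretory cells and 0.568 CPM for endothelial cells, and lay between 3.62 and 7.48 CPM for leukocytes and between 16.6 and 24.1 CPM for fibroblasts. In these bulk libraries, fewer cells of a kind and less RNA per cell cannot be told apart.

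A gene was called when its Benjamini-Hochberg adjusted p from the quasi-likelihood test of edgeR was under 0.05. Of the 8 tested regulators 0 were called, whereas 34.0% of all tested genes were. None was a differentially expressed gene (DEG, a called gene whose level also changed more than 1 on the log2 scale), against 12.2% of all tested genes. At an unadjusted p under 0.05 the count was 1 with edgeR (MYB), 1 with limma-voom and 0 with DESeq2, and neither of those tools called a regulator after adjustment. Every called gene also passes at the unadjusted p. The share of all tested genes passing was therefore at least 34.0% with edgeR, 32.6% with limma-voom and 27.8% with DESeq2. All siE7 libraries lay to one side of all siNC libraries for 3 of the 8 (MYB, RFX2 and RFX3), and so they did for 47.6% of all tested genes. The median log2 fold change was -0.12 over the 8 and 0.08 over all tested genes. For 6 of the 8 the 95% interval lay within a log2 change of 1 in either direction, and it reached further for E2F5 and RFX3.

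**Figure D1:**
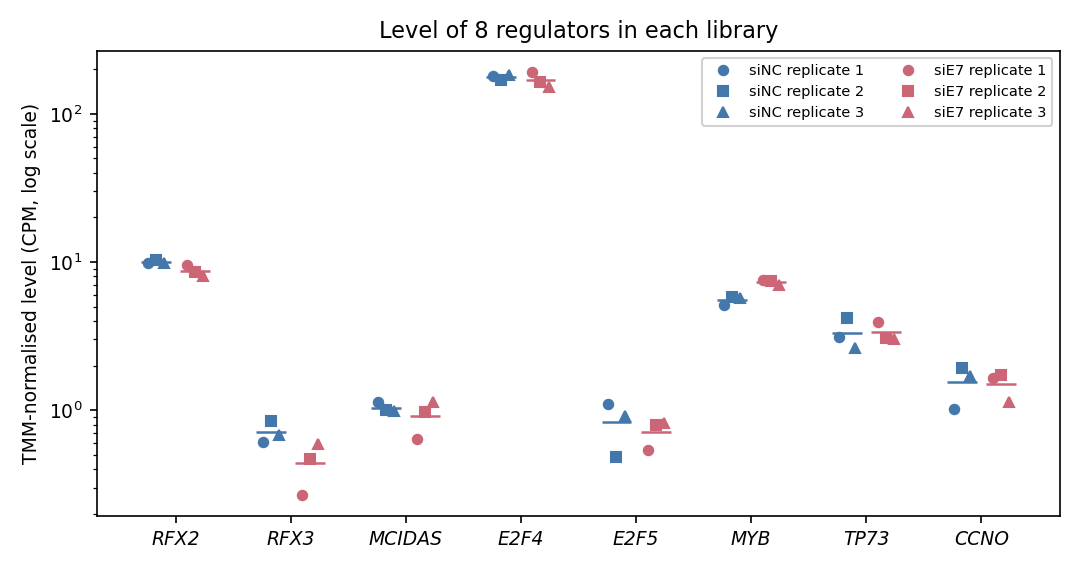
Level of the 8 tested regulators in each library, as TMM-normalised CPM on a log scale, with siNC in blue, siE7 in red, a symbol per replicate and a bar at the mean of each group. MYB, RFX2 and RFX3 are the genes whose groups do not overlap, and E2F4 lies between 152 and 191.9 CPM in all libraries.

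The levels spanned a wide range per length. Divided by the summed exon length of the gene (CPM per kb), the siNC mean was 49.2 for E2F4, 1.11 for RFX2, 1.01 for MYB, 0.890 for CCNO, 0.489 for TP73, 0.485 for MCIDAS, 0.138 for E2F5 and 0.0635 for RFX3. By the average of the siNC and siE7 means on this scale, E2F4 lay above 93.8% of the tested genes and RFX3 above 1.03%. In the siNC libraries, CCNO (0.583 to 1.11 CPM per kb) overlapped RFX2 and MYB, and TP73 (0.386 to 0.621) overlapped MCIDAS (0.460 to 0.529), so these neighbours were not ordered beyond their spread. RFX2 lay above MYB with siNC (1.09 to 1.14 against 0.935 to 1.06 CPM per kb) and below it with siE7 (0.884 to 1.05 against 1.27 to 1.37). All exons of all isoforms entered the length, which lowers the value of genes with many isoforms.

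GMNC (ENSG00000205835.9, chr3:190852737-190892429, minus strand), which acts at the top of the programme, was read 0 times in each siNC library and in siE7 replicates 1 and 2, and 1 time in siE7 replicate 3. A count of 0 allows a level of up to 0.098 to 0.121 CPM in these libraries (3 counts), so no difference could be seen at this depth.

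MCIDAS (ENSG00000234602.9, chr5:55219564-55227315, minus strand), the coactivator that follows GMNC, had 28, 25 and 26 reads in siNC replicates 1 to 3 and 19, 27 and 35 in siE7 replicates 1 to 3. These were 1.13, 1.00 and 0.984 CPM with siNC and 0.641, 0.977 and 1.14 CPM with siE7. The siE7 libraries held both the lowest and the highest value, and the groups overlapped. The log2 fold change was -0.17 (standard error 0.345, 95% interval -0.93 to 0.58, adjusted p = 0.72 by edgeR), and 0.00 with library totals as the only scaling. It was -0.03 without siE7 replicate 1 and -0.36 without siE7 replicate 3, and neither value was called. MCIDAS was therefore detected in every library at a low level, and a change up to 1.50-fold higher or to 0.526 of the siNC level was within the interval.

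E2F4 (ENSG00000205250.9, chr16:67192155-67198918, plus strand), a repressor in resting cells and the DNA-binding partner of GMNC and MCIDAS in ciliating ones, was the abundant member. Its level was 181, 168 and 182 CPM in siNC replicates 1 to 3 and 191.9, 163 and 152 CPM in siE7 replicates 1 to 3. The library that stands apart, siE7 replicate 1, was the highest of all 6 and the other siE7 libraries the lowest. The log2 fold change was -0.07 (standard error 0.118, 95% interval -0.32 to 0.19, adjusted p = 0.69 by edgeR) with all libraries. Without siE7 replicate 1 it was -0.23 (standard error 0.0569, 95% interval -0.34 to -0.11, adjusted p = 7.7e-04 by edgeR), and E2F4 was called lower. In that fit 58.4% of 15011 tested genes were called, against 34.0% with all libraries.

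E2F5 (ENSG00000133740.11, chr8:85177154-85217158, plus strand), the closest relative of E2F4, had 27, 12 and 24 reads with siNC and 16, 22 and 25 with siE7, which were 63 in total in each group. In CPM this was 1.09, 0.480 and 0.908 with siNC against 0.539, 0.796 and 0.817 with siE7, and the groups overlapped. The change of E2F5 was -0.20 on the log2 scale (standard error 0.405, 95% interval -1.09 to 0.68, adjusted p = 0.72 by edgeR). Exons of RBIS lie over those of E2F5 on the other strand, at 8.96 CPM with siNC and 14.3 CPM with siE7, and whether the counting used the strand is not given in the sources used here.

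MYB (ENSG00000118513.19, chr6:135181308-135219173, plus strand), a factor of dividing progenitors that is also switched on early in multiciliated precursors, came nearest to a call. It had 127, 145 and 151 reads in siNC replicates 1 to 3 and 223, 205 and 213 in siE7 replicates 1 to 3. These were 5.14, 5.80 and 5.72 CPM against 7.52, 7.42 and 6.96 CPM, so every siE7 library lay above every siNC library. The log2 fold change was 0.39 (standard error 0.169, 95% interval 0.03 to 0.76), or 1.31-fold, with an unadjusted p of 0.038 and an adjusted p of 0.092 by edgeR across all tested genes, which did not pass. An exact permutation test (two-sided) on the CPM had p = 0.1, which is the smallest value possible with 3 libraries in each group. Over 14 other settings the log2 fold change lay between 0.31 and 0.56 and the adjusted p between 0.022 and 0.28 by edgeR, DESeq2 or limma. MYB passed only where TMM factors were left out and library totals alone set the scale (0.56, adjusted p = 0.022 by edgeR), a scaling that moved the median of the tested genes up by 0.17 and the share of higher genes among the called ones from 52.9% to 71.2%. Without siE7 replicate 1 the log2 fold change was 0.31 (adjusted p = 0.093 by edgeR).

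TP73 (ENSG00000078900.15, chr1:3652516-3736201, plus strand), a factor that switches on FOXJ1 and other ciliary genes, had 77, 105 and 69 reads with siNC and 117, 85 and 93 with siE7. This gave 3.12, 4.201 and 2.61 CPM against 3.94, 3.08 and 3.04 CPM, and the siE7 values lay inside the siNC range. Its log2 fold change was 0.02 (standard error 0.240, 95% interval -0.51 to 0.55, adjusted p = 0.96 by edgeR) and took the other sign with DESeq2 and with RLE scaling. TP73-AS1, whose exons overlap those of TP73 on the other strand, was at 0.344 CPM with siNC and 0.187 CPM with siE7. Gene counts do not tell apart the full-length and the N-terminally shortened forms of TP73.

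CCNO (ENSG00000152669.9, chr5:55231152-55233608, minus strand), the cyclin required for centriole amplification, is the next gene to MCIDAS, at a distance of 3836 bases. It had 25, 48 and 45 reads with siNC and 49, 48 and 35 with siE7. These were 1.01, 1.92 and 1.70 CPM against 1.65, 1.74 and 1.14 CPM, and the groups overlapped. The change of CCNO was -0.04 on the log2 scale (standard error 0.321, 95% interval -0.74 to 0.67, adjusted p = 0.94 by edgeR), and its sign turned with library totals as the scaling (0.13).

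RFX2 (ENSG00000087903.13, chr19:5993164-6199572, minus strand), a factor that binds the X-box, had 245, 259 and 262 reads with siNC and 284, 237 and 246 with siE7, 766 and 767 in total. After TMM scaling these were 9.92, 10.4 and 9.92 CPM against 9.57, 8.58 and 8.04 CPM, so every siE7 library lay below every siNC library. For RFX2 the log2 fold change was -0.20 (standard error 0.157, 95% interval -0.55 to 0.14, adjusted p = 0.34 by edgeR), and -0.04 with library totals as the scaling. Without siE7 replicate 1 it was -0.34 (standard error 0.135, adjusted p = 0.030 by edgeR) and RFX2 was called lower, in the fit in which 58.4% of the genes were called. Exons of ACSBG2 overlap those of RFX2 on the other strand.

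RFX3 (ENSG00000080298.16, chr9:3218297-3526004, minus strand), a second X-box factor of ciliated cells, had 15, 21 and 18 reads with siNC and 8, 13 and 18 with siE7. These were 0.607, 0.840 and 0.681 CPM against 0.270, 0.471 and 0.588 CPM, and all siE7 libraries lay below all siNC libraries. Its log2 fold change of -0.67 was the farthest from 0 among the 8, but with so few reads the standard error was 0.425, the 95% interval -1.60 to 0.26 and the adjusted p 0.24 by edgeR. Where at least 10 reads in every library were asked for, RFX3 too was not tested.

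**Figure D2:**
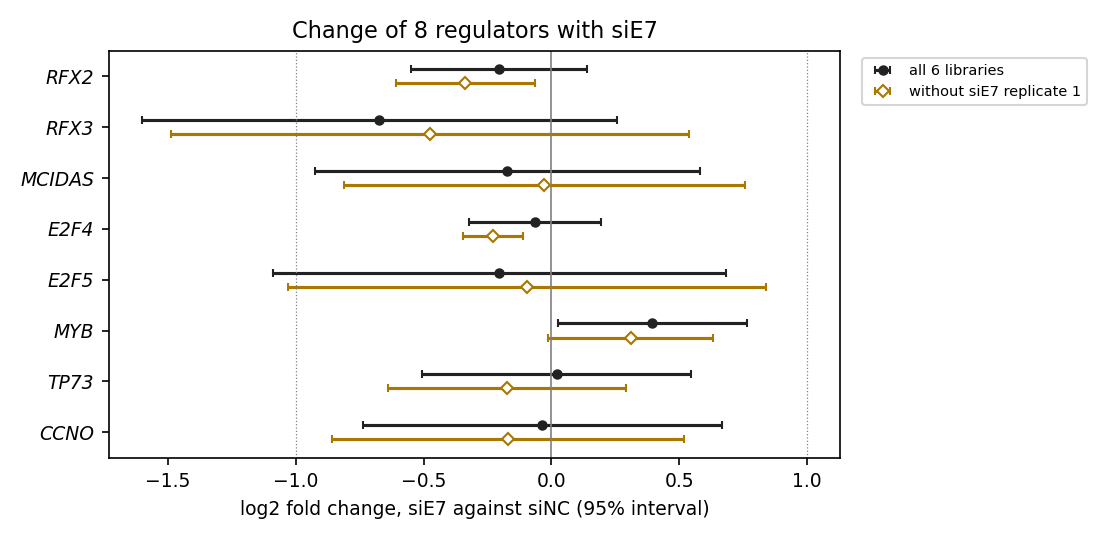
Log2 fold change of each tested regulator between siE7 and siNC with its 95% interval from edgeR, for all 6 libraries (black circles) and without siE7 replicate 1 (open diamonds), with dotted lines at a change of 1 in either direction. With all libraries, MYB at 0.39 is the gene whose interval leaves out 0, and without that replicate RFX2 (-0.34) and E2F4 (-0.23) are.

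**Figure D3:**
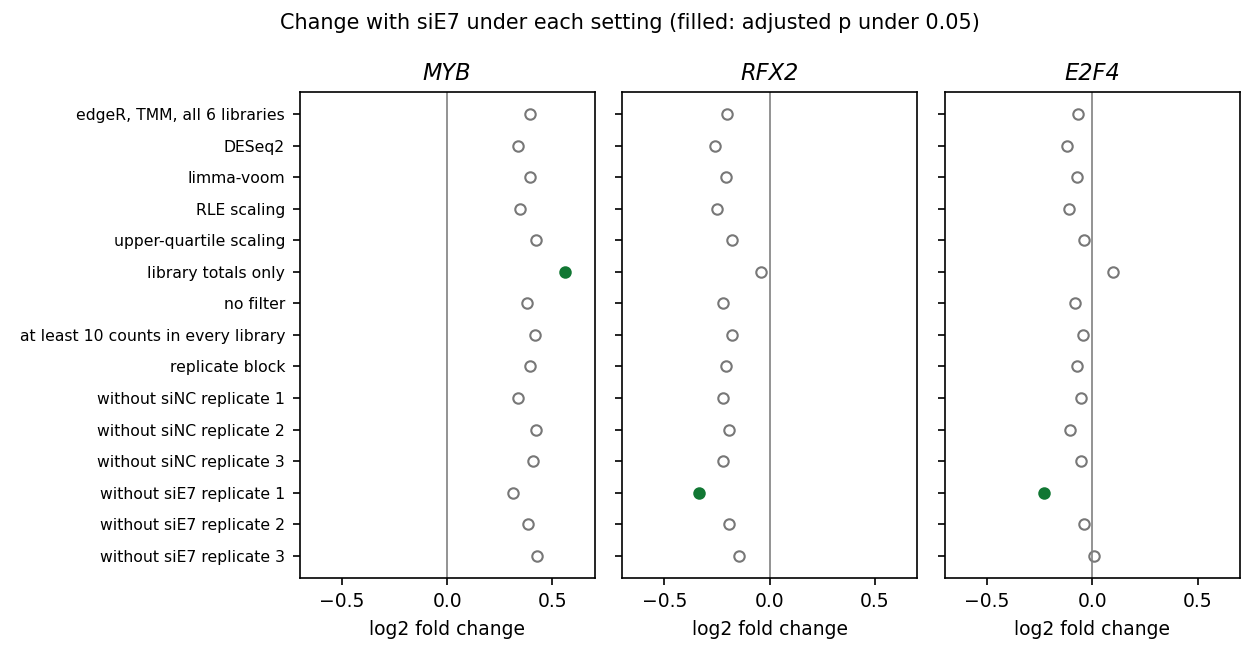
Log2 fold change of MYB, RFX2 and E2F4 under the TMM-scaled edgeR fit and 14 other settings, with filled points where the adjusted p was under 0.05. MYB is filled with library totals (0.56), and RFX2 and E2F4 without siE7 replicate 1.

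In a list of motile axoneme and assembly genes, which act downstream of the regulators, 53 of 56 were measured and 30 tested. Of the 30, 13 reached the limit of the low-count filter, 0.368 CPM, in fewer than 3 siNC libraries and so needed siE7 libraries to be tested, which favours higher values with siE7 among them. The other 17 reached it in every siNC library, and 7 of these were called higher and 1 lower (MNS1), 47.1% against 34.0% of all tested genes. Of the 17, 5 were DEGs, where 12.2% of all tested genes were, and their median log2 fold change was 0.82, against 0.08 over all tested genes. Over all 30 the counts were 16 higher, 1 lower and 13 not called. Summed over all 53 genes, tested or not, the level was 76.2, 73.5 and 73.1 CPM in siNC replicates 1 to 3 and 126, 152 and 145 CPM in siE7 replicates 1 to 3. Every siE7 library was thus above every siNC library, and the library that stands apart was the lowest of the siE7 group.

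CCDC40, part of the ruler that spaces the dynein arms along the axoneme, was at 2.75, 3.48 and 3.94 CPM with siNC and 18.1, 19.2 and 18.4 CPM with siE7, and its log2 fold change was 2.45 (adjusted p = 5.0e-06 by edgeR, standard error 0.178). RSPH1, a radial spoke head protein, was at 0.162, 0.240 and 0.492 CPM against 2.90, 3.04 and 3.79 CPM (log2 fold change 3.41, standard error 0.372). CCDC113 was at 12.7, 10.1 and 13.7 CPM against 22.4, 28.8 and 24.3 CPM (1.05, standard error 0.164). The groups lay apart in each of these genes, as in 47.6% of all tested genes, but these 3 were named for their small p-values. RSPH1 was among the 13 genes that needed siE7 libraries to be tested. The 23 untested genes had 31, 41 and 28 reads in total with siNC and 118, 108 and 136 with siE7. DNAI2, an outer dynein arm chain, and TEKT1, a tektin, had 0 reads in every library but siE7 replicate 1, where they had 1 and 4, at or near the floor of 3 counts. Without siE7 replicate 1, 21 axoneme genes of 32 tested were called higher, in a fit that called 58.4% of all genes. Where at least 10 reads in every library were asked for, 8 of 17 were called higher, in a fit that called 35.1% of all tested genes.

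The promoters of this list were searched for the same elements. Of 37 axoneme genes with a promoter window, 5 (13.5%) held a whole X-box and 15 (40.5%) the arm GTTGCC on either strand, against 1.34% and 12.3% of all 27305 genes. Among the 11 called higher with a window, 2 held the X-box and 4 the arm. A match of GTTGCC is part of many X-box matches, so the counts share genes. An E2F match was found before 0 of the 37, where 3.4% of all genes held one.

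**Figure D4:**
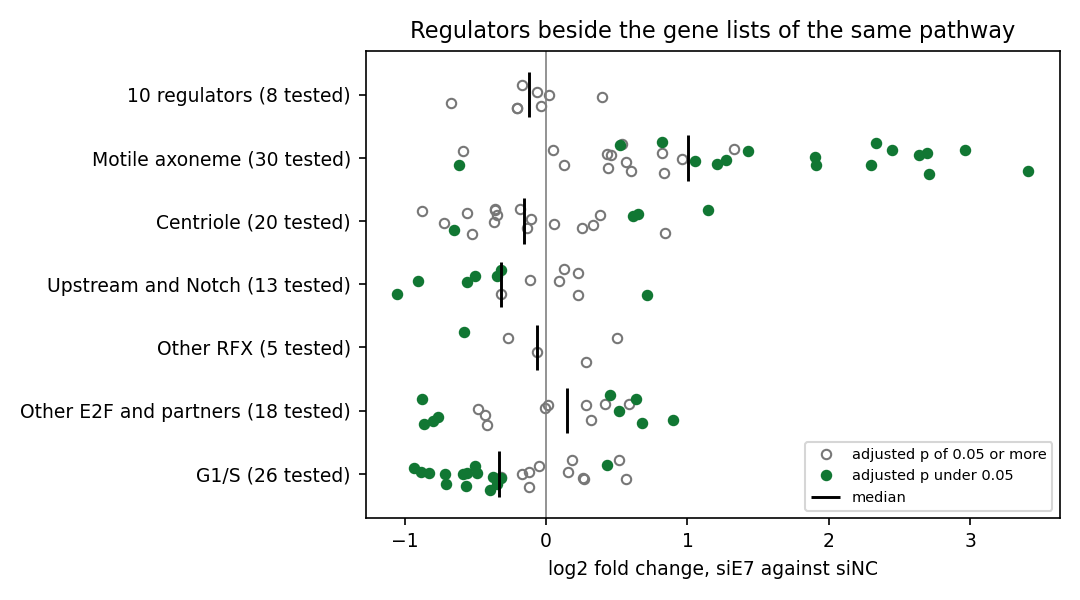
Log2 fold change between siE7 and siNC of every tested gene of each list, a point per gene, filled where the adjusted p was under 0.05, with the median as a bar. The 8 tested regulators lie between -0.67 and 0.39 with no filled point, and the axoneme row includes the 13 genes that needed siE7 libraries to be tested, so its bar lies above the median of 0.82 of the other 17.

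Among genes of centriole assembly, the step that CCNO serves, 20 were tested, 3 were called higher and 1 lower by edgeR, which is 20% against 34.0% of all tested genes. CEP164, of the appendages that dock the basal body, rose (log2 fold change 0.65, standard error 0.130), CETN3, a centrin, rose by 1.14 (standard error 0.259), and POC1A fell by 0.65 (standard error 0.147). PLK4 and STIL, which start centriole duplication, were not called, with log2 fold changes of -0.35 and -0.18. Without siE7 replicate 1 the count of called centriole genes was 11 (58.4% of all genes were called in that fit). With the replicate numbers as a block it was 7, where 33.7% of all tested genes were called. With no filter on low counts it was also 7, out of 22 centriole genes, where 21.6% of all genes were called.

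In the list of upstream and accessory genes, 13 were tested, 1 was called higher and 6 lower, which is 53.8% against 34.0% of all tested genes. The Notch receptor gene NOTCH2 was at 78.2, 71.7 and 86.2 CPM with siNC and 49.1, 38.4 and 38.2 CPM with siE7, a log2 fold change of -0.91 (standard error 0.135). The Notch ligand gene DLL1 fell by 1.05 (standard error 0.177), and NOTCH1 (-0.51) and JAG1 (-0.34) were also called lower. The receptor gene NOTCH3 (-0.32), the ligand gene JAG2 (0.09) and the Notch target HES1 (0.13) were not called. STK36, a kinase needed for motile cilia, rose by 0.71 (standard error 0.193). GMNN encodes geminin itself, listed here among the antagonists of the programme. GMNN was at 46.6, 45.0 and 45.3 CPM with siNC and 36.3, 59.3 and 64.7 CPM with siE7 (log2 fold change 0.23, adjusted p = 0.36 by edgeR). Here too siE7 replicate 1 lay apart, below all siNC libraries. This list changed with the libraries, and 2 genes were called without siNC replicate 1 or 2, 3 without siNC replicate 3 or siE7 replicate 3, 4 without siE7 replicate 2 and 10 without siE7 replicate 1. The share of all tested genes called moved too, from 34.0% to between 20.9% and 26.8% in the first 5 of these fits and 58.4% in the last.

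Of the other RFX genes and the partners of RFX5, 5 were tested and RFXANK was called lower (log2 fold change -0.58, standard error 0.149). This is 20% of those tested, against 34.0% of all tested genes. RFX1 (0.28), RFX5 (-0.07), RFX7 (-0.27) and RFXAP (0.50) were not called. RFX5, RFXANK and RFXAP are known as the complex that transcribes MHC class II genes. With all libraries no RFX gene was called. The count of the list was 0 without siNC replicate 3 and 2 without siE7 replicate 1, fits that called 20.9% and 58.4% of all tested genes.

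Several relatives of E2F4 and MYB were called. Of 18 other E2F, DP, pocket protein, MuvB and MYB family genes, 5 were called higher and 4 lower, which is 50% against 34.0% of all tested genes. E2F2 (0.90), E2F1 (0.52), E2F6 (0.45), the pocket protein gene RBL2 (0.68) and LIN52 (0.64) were called higher, and RBBP4 (-0.87), E2F7 (-0.88), MYBL2 (-0.80) and MYBL1 (-0.76) lower. MYBL2, the MYB family gene of the G2 phase, was at 835, 1018 and 980 CPM with siNC and 612, 504 and 509 CPM with siE7. Its groups lay apart and on the other side from those of MYB. MYBL1 was at 29.6, 26.6 and 29.0 CPM against 11.4, 22.4 and 16.4 CPM. The DP partners TFDP1 (-0.01) and TFDP2 (0.41) were not called, nor were E2F3 (0.32), E2F8 (0.01), RB1 (-0.42), RBL1 (-0.48), LIN9 (-0.43), LIN37 (0.59) and LIN54 (0.29). The count of called genes was 5 without siNC replicate 1, a fit that called 21.4% of all tested genes.

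Of 26 tested G1/S genes under E2F control, 14 were called lower, 1 higher and 11 not called. These calls are 57.7% of the list, against 34.0% of all tested genes, with a median log2 fold change of -0.33. GINS1 fell by 0.94, CCNE1 by 0.89 and TYMS by 0.83 on the log2 scale, with standard errors of 0.117, 0.121 and 0.109. PCNA was the gene called higher (0.43). The count of called genes was 8 without siNC replicate 2 and 9 without siNC replicate 1, siNC replicate 3 or siE7 replicate 2, fits that called between 20.9% and 25.2% of all tested genes.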

How the data were processed

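Stranded poly(A) mRNA libraries of 6 SCC-9 samples were sequenced by the authors as paired-end reads on a NovaSeq. The authors deposited whole-number counts of reads per gene, without normalization. The submitters' processing notes name HISAT2, DESeq2 and GRCh38, and the counting tool, its strand setting and the annotation release are not given in the sources used here. Every row of the table held at least 1 count. Samples were grouped by title, each library as 1 replicate.

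From the 25349 genes, filterByExpr of edgeR 4.0.16 (R 4.3.3) kept 14661. Libraries were scaled by TMM factors (0.936 to 1.10), and siE7 was compared with siNC by the robust quasi-likelihood F-test of edgeR, with p-values adjusted by Benjamini-Hochberg over all tested genes. Standard errors are the log2 fold change over the root of F, and 95% intervals use the moderated degrees of freedom. Floors of 3 counts cover no difference between cultures. Intervals rest on the spread between the libraries of a group, and the labels do not say whether these were separate cultures. The fits were checked on simulated data. Alternatives were DESeq2 1.42.0, limma-voom (limma 3.58.1), other scalings and filters, a replicate block and each library left out. Gene positions and exon lengths come from GENCODE v44 on GRCh38, matched for 25283 identifiers without version. Promoters are from RefSeq (GRCh38.p14). Windows on chromosome 8 were not used for the regulators, but were not left out of the shares over all windows, all genes and the axoneme list. Tables were built with Python 3.11.15 and pandas 2.3.3, figures with matplotlib 3.10.9.

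The members, lists and tests were chosen with earlier results of these data known. All 10 regulators were to be named, with MKI67, the 3 called genes of smallest p-value in each list reported, all tested genes of the RFX and E2F lists, GMNN, KRT5, KRT14 and TP63. Genes most like a called member were to be named, and none was called. Other genes named (such as DNAI2, TEKT1, MNS1, PLK4, STIL, HES1, NOTCH1, NOTCH3, JAG1, JAG2, PCNA and single ciliated markers) were chosen after their values were seen. The results of 1 further gene list are not reported here.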

Additional observations from a re-analysis of the deposited data

How the results depend on the processing

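The count of 0 called regulators held with DESeq2, limma-voom, RLE and upper-quartile scaling, both other filters, the replicate block and 5 of the 6 fits without a library. It was 1 with library totals only (MYB) and 0 to 2 over the fits without a library, the 2 being E2F4 and RFX2 without siE7 replicate 1. No regulator was a DEG in any setting. With no filter 0 members were too low to test, and 2 were with at least 10 counts in every library. Signs near 0 turned. TP73 was -0.0335 with DESeq2 and -0.0247 with RLE scaling, and with library totals only MCIDAS was 0.0027, E2F4 0.098 and CCNO 0.13. Over the fits without a library, TP73 lay between -0.17 and 0.22, CCNO between -0.27 and 0.14, E2F4 between -0.23 and 0.0068 and E2F5 between -0.48 and 0.037. The cause was not tested. Called genes of the lists moved as follows. The upstream list had 4 with upper-quartile scaling, 3 with library totals only, 4 with the replicate block and 2 to 10 without a library. The centriole list had 7 with no filter, 7 with the replicate block and 3 to 11 without a library. The other RFX list had 2 with library totals only and 0 to 2 without a library, and the axoneme list 9 with at least 10 counts in every library, where 17 genes were tested. Without a library the axoneme list had 12 to 22, the E2F list 5 to 13 and the G1/S list 8 to 22. The share of all tested genes called moved too, and was 34.3% with upper-quartile scaling, 38.6% with library totals only and 33.7% with the replicate block. It was 21.6% with no filter, 35.1% with at least 10 counts in every library and 20.9% to 58.4% without a library. Replicate numbers showed no visible pairing of the libraries. Deviations of same-numbered libraries from their group means had correlations of -0.039, -0.021 and -0.052 over 14661 genes, and 0 of 6 libraries correlated best with their own number. With 3 libraries in each group and siE7 replicate 1 standing apart, this check cannot exclude a small effect shared by same-numbered libraries. The replicate block moved the calls over all genes from 4990 to 4947. Without siE7 replicate 1 they were 8765. Levels near 1 CPM rest on 8 to 49 reads a library, which limits RFX3, MCIDAS, E2F5 and CCNO.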
